A study of Mus musculus with 8 samples.

Results

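Peaks of Ezh2, of histone H3 trimethylated at lysine 27 (H3K27me3) and of Runx1 were mapped over 10 genes of Polycomb repressive complex 2 (PRC2) in cells of EML_C1, a line of mouse blood progenitors that grows in stem cell factor. The genes were listed by function and not by measured values, though with earlier results of these data known. They were Ezh2, Ezh1, Eed, Suz12, Rbbp4, Rbbp7, Jarid2, Phf1, Mtf2 and Phf19, 10 of the 21887 protein-coding genes considered. All 6 deposited peak lists, 2 replicates for each of the 3 antibodies, were read over each gene span plus 5 kb on either side. All libraries were from the same line, labelled as C57BL/6 in strain and grown with 200 ng/ml stem cell factor, and the labels name no mutation or treatment. Chromatin for Ezh2 and Runx1 was fixed for 60 min with 2 mM DSG and for 60 min with 1% formaldehyde, and that for H3K27me3 for 10 min with formaldehyde alone. Whether the replicates came from separate cultures is not labelled, and their spread may be only technical. Peaks give no expression by which the cell type could be checked.

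PRC2 is the enzyme complex that methylates lysine 27 of histone H3, a mark of repressed chromatin. Ezh2 or its paralog Ezh1 is the methyltransferase, Eed and Suz12 are required for its activity, and the histone-binding proteins Rbbp4 and Rbbp7 complete the core. Jarid2 and the Polycomb-like proteins Phf1, Mtf2 and Phf19 are accessory subunits that help bring the complex to its sites. In blood progenitors PRC2 restrains genes of other fates, and Runx1 is a transcription factor needed for the formation of blood stem cells.

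Runx1 was found at all 10 genes, Ezh2 at Jarid2 and Phf19, and H3K27me3 at Phf19 alone. A gene was called where a peak of replicate 1 overlapped a peak of replicate 2 by at least 1 bp, and the merged region touched the window. By the same rule 62.8% of all protein-coding genes were called for Runx1, 30.8% for Ezh2 and 46.2% for H3K27me3. The windows of 7 members were between the median and the 75th percentile of all genes in length, and among genes of that length the shares were 72.8%, 31.3% and 45.0%. Of the 10 genes, 8 had no peak of either Ezh2 list and of either H3K27me3 list in the window, although these lists reach down to peaks with a p just under 0.05. This held for 36.4% of all genes, and for 27.5% together with a Runx1 call. All 3 antibodies were called in the window of Phf19 alone among the members, and in that of 16.3% of all genes. When only peaks at or under a q of 0.01 were kept, the members' counts were unchanged, while the shares of all genes fell to 59.0%, 15.0% and 5.62%. At a q of 1e-05 no member kept H3K27me3, beside 0.626% of all genes. The counts of 2 genes for Ezh2 and 1 for H3K27me3 are small. Whether they lay below or above the share of all genes turned on the cutoff. With 2 replicate lists per antibody no test of these counts was made.

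**Figure D1:**
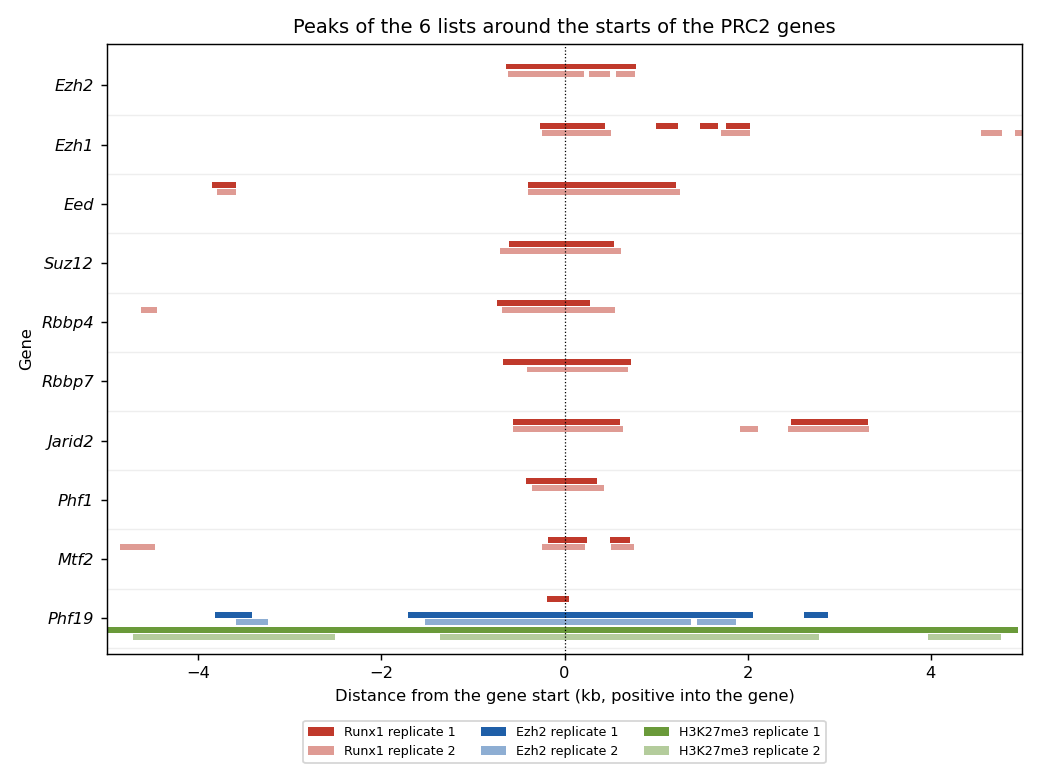
Peaks of the 6 lists within 5 kb of the first listed start of each gene (x axis, kb, positive into the gene; y axis, gene). Each bar is 1 deposited peak, dark for replicate 1 and pale for replicate 2. Runx1 peaks (red) of both replicates lie over the start in 9 genes, and Ezh2 (blue) and H3K27me3 (green) peaks lie over that of Phf19.

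At the gene start the members fell into 9 genes of one kind and 1 of the other. Ezh2, Ezh1, Eed, Suz12, Rbbp4, Rbbp7, Jarid2, Phf1 and Mtf2 had a Runx1 region across the start and neither Ezh2 nor H3K27me3 within 1 kb of it. Phf19 had Ezh2 and H3K27me3 across the start and no Runx1 region of both replicates within 1 kb. Of the 17492 genes with a start in the promoter table, 46.0% had Runx1 within 1 kb of a start, 14.0% had Ezh2 and 27.1% had H3K27me3. The pattern of the 9 genes was found at 40.7% of them and that of Phf19 at 8.99%. The promoters of the members were rich in the dinucleotide CG, with 17 to 41 (median 30.5) in 300 bp against a median of 13 over 21263 promoters. Among the 7533 genes whose first start had at least 17, Runx1 was at a start in 75.2%, Ezh2 in 15.1%, H3K27me3 in 21.6%, the pattern of the 9 genes in 66.5% and that of Phf19 in 6.88%. The 9 of 10 members with Runx1 at the start are to be read against the 75.2%.

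The promoters of 4 members are shown as the 250 bases before the start, from RefSeq on GRCm38.p6, which has the coordinates of mm10. They are those of Ezh2, the catalytic subunit that was itself immunoprecipitated, of Rbbp4, whose Runx1 summits lie between its start and the span of a neighbouring gene, of Phf1 with the highest Runx1 fold, and of Phf19 with Ezh2 over the start. The listed start lay 240 bp inside the gene span at Ezh2 and 377 bp inside it at Phf19. The bases shown for Phf19 are thus within its span, as are most of those for Ezh2. Capitals mark the Runx core motifs TGTGGT and TGCGGT on either strand (ACCACA and ACCGCA on the other).
Ezh2 (chr6:47595031-47595280, minus strand): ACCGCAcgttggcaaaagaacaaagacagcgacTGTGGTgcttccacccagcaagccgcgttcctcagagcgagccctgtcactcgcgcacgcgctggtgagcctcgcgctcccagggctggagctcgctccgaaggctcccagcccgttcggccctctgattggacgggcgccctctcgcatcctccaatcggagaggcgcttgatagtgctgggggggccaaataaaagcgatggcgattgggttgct
Rbbp4 (chr4:129335371-129335620, minus strand): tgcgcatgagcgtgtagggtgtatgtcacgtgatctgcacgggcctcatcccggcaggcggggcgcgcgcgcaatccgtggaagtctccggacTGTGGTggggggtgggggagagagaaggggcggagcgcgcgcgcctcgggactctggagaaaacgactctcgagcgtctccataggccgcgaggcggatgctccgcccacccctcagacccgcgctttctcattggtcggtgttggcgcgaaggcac
Phf1 (chr17:26932877-26933126, plus strand): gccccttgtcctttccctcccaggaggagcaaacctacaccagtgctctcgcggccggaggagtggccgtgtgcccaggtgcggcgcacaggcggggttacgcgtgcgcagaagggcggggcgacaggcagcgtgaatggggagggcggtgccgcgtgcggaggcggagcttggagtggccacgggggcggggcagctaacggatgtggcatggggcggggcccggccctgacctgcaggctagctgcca
Phf19 (chr2:34913977-34914226, minus strand): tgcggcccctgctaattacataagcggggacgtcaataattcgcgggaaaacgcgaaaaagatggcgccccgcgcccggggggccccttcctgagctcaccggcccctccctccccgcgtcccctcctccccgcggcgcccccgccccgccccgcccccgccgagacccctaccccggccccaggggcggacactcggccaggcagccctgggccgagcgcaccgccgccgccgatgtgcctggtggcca

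One of the core motifs was in the 250 bases of 5 of the 10 members (Ezh2, Ezh1, Rbbp4, Jarid2 and Mtf2), against 17.7% of 21263 promoters of that length. TGTGGT was in 3 members and in 12.4% of promoters, and TGCGGT in 3 members and in 5.87%. The Ezh2 promoter held both, with TGTGGT from 217 to 212 bases before the start and ACCGCA from 250 to 245 bases before it. The Jarid2 promoter held ACCACA from 196 to 191 bases before the start, upstream of its Runx1 summits at -145 and -160 bp. Phf1 and Rbbp7, with the highest Runx1 folds at a start, had neither motif in this window, and neither did Eed, Suz12 or Phf19. The shares are over all promoters and not over those as rich in CG as the members' promoters, and TGCGGT itself holds a CG. No count against promoters of like CG content was made. A match is a stretch of letters and not a mapped site.

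The catalytic genes Ezh2 and Ezh1 both carried Runx1 over the start, at different heights. Ezh2 (chromosome 6, 47530274 to 47595270, minus strand) had a region of 1415 bp that ran from -636 to 778 bp around the start. Its fold enrichment, a linear ratio given by the authors' peak caller, was 3.72 in replicate 1 and 3.75 in replicate 2, or 3.73 ± 0.0227 (SD, n = 2). The summits lay at -290 and -299 bp from the listed start, which was inside the span, and on average 54.5 bp from the outer end of the span. The -log10 q was 15.1 and 15.5. The mean fold was the lowest start value of the 9 genes, and 22.0% of the 8054 genes with Runx1 at a start had a lower one. The median of those genes was 7.50, so the Ezh2 gene stood below the middle of the distribution. Inside the gene a region 29.2 kb downstream of the start was slightly higher, with folds of 4.16 and 4.51, and one 62.4 kb downstream had 2.80 and 2.11. The last of these had a -log10 q of 0.27 in replicate 2 and so did not pass a q of 0.01.

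Ezh1 (chromosome 11, 101191115 to 101226463, minus strand) had Runx1 folds of 17.6 and 17.5 at the start, with summits 3 and 7 bp downstream of it. The value of Ezh1 was above that of Ezh2 in both replicates. The SDs, 0.0227 for Ezh2 and 0.0874 for Ezh1, are over 2 lists and may be only technical, and the difference was not tested. Of all genes with Runx1 at a start, 77.9% were lower than Ezh1. A second region 1902 and 1872 bp into the gene had folds of 5.52 and 5.80. Another one, with 3.43 and 3.71, lay past the end of Ezh1 inside its neighbour Cntnap1, 617 bp from the edge of that gene's span. Neither catalytic gene had a peak of Ezh2 or of H3K27me3 in its window, in any of the 4 lists. The peaks closest to the start of the Ezh2 gene were an Ezh2 peak of replicate 1 at 20.2 kb and an H3K27me3 peak of replicate 2 at 18.4 kb.

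**Figure D2:**
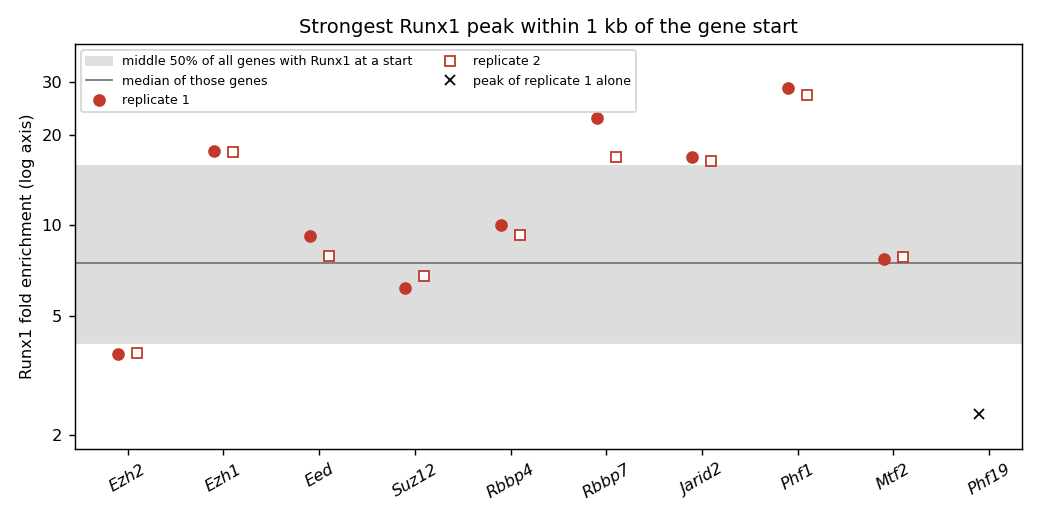
Runx1 fold enrichment (log axis) of the strongest region within 1 kb of the start, per gene, with replicate 1 as filled circles and replicate 2 as open squares. The grey band is the middle 50% of the 8054 genes with Runx1 at a start and the line their median of 7.50. Ezh2 lies below the band, Ezh1, Rbbp7, Jarid2 and Phf1 lie above it, and the cross at Phf19 is a peak of replicate 1 alone.

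The core genes Eed and Suz12 had Runx1 over the start at middle heights. Eed (chromosome 7, 89954654 to 89980976, minus strand) had folds of 9.20 and 7.92 in a region of 1665 bp, the widest of the start regions, with summits 634 and 600 bp into the gene. A weaker region upstream, with summits at -3688 and -3689 bp, had folds of 3.95 and 4.18, and another 17.6 kb downstream had 2.94 and 2.88. Suz12 (chromosome 11, 79993106 to 80034123, plus strand) had a single region, with folds of 6.19 and 6.75 and summits at -25 and 4 bp. Eed lay above the median of genes with Runx1 at a start and Suz12 below it. No other gene reached into the window of either.

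The histone-binding paralogs Rbbp4 and Rbbp7 each had 1 Runx1 region, over the start. Rbbp7 (chromosome X, 162760372 to 162779090, plus strand) had folds of 22.7 and 16.9, or 19.8 ± 4.08, and its replicates were the furthest apart of the start regions in fold. Rbbp4 (chromosome 4, 129307100 to 129335370, minus strand) had folds of 10.0 and 9.27, or 9.66 ± 0.544. The value of Rbbp7 was above that of Rbbp4 in both replicates. The summits at Rbbp4 lay 63 and 114 bp before its start, in the gap of 162 bp that separates it from the span of Zbtb8os on the other strand. By the listed starts they were closer to Rbbp4, as the listed start of Zbtb8os lay further inside its span and the summits were at -535 and -484 bp from it. By the edges of the spans they were 88.5 bp from Rbbp4 and 73.5 bp from Zbtb8os on average. No Ezh2 or H3K27me3 peak of any list lay in either window.

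Among the accessory genes, Jarid2 had the most Runx1 regions and Phf1 the highest. Jarid2 (chromosome 13, 44730774 to 44921643, plus strand) had 8 regions in a window of 200.9 kb. That number was above that of 88.1% of the 25% of genes with the longest windows, whose median was 2. Per 100 kb of window Jarid2 had 3.98 regions, beside 4.00 at the Ezh2 gene. The members ran from 1.96 at Suz12 to 13.5 at Phf1, so its count went with its length. The start region had folds of 16.8 and 16.3. A cluster of 3 regions lay far downstream, between 171656 and 184786 bp from the start, and its highest, 172765 and 172776 bp from the start, had folds of 11.5 and 16.3. In replicate 2 this distal region was close to the start region in fold, and in replicate 1 it was lower. A region 2687 and 2688 bp into the gene had folds of 5.69 and 6.24, and the remaining 3 had mean folds of 2.56, 3.35 and 3.18.

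Phf1 (chromosome 17, 26933127 to 26937908, plus strand) had folds of 28.5 and 27.2 at the start, or 27.8 ± 0.963, higher than in 88.0% of genes with Runx1 at a start. The summits lay at -77 and -91 bp, with the span of Kifc5b ending 548 bp before the start. A second region with folds of 13.1 and 10.8 lay past the end of Phf1, near the start of Cuta, a gene on the minus strand. Its summits were at -56 and -47 bp from the listed start of Cuta, so this region was closer to Cuta than to Phf1. Mtf2 (chromosome 5, 108065660 to 108109219, plus strand) had folds of 7.74 and 7.80 with summits at -23 and -25 bp, and a weaker region at 599 and 629 bp with 3.49 and 4.31. Phf1 and Mtf2 are both Polycomb-like proteins, and their start values were apart in both replicates.

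Over the 9 genes, replicate summits of the 10 start regions were a median of 14.5 bp and at most 51 bp apart, against a median of 22 bp over all 44027 Runx1 regions. The strongest start regions were 494 to 1665 bp wide with a median of 1285 bp, against 707 bp over the 7859 genes with Runx1 within 1 kb of the first start. The summit lay within 100 bp of the first listed start in 6 of the 9 (Ezh1, Suz12, Rbbp4, Rbbp7, Phf1 and Mtf2), against 53.7% of those genes. All 10 start regions passed a q of 1e-05 in both replicates, as did 8 of the 16 regions elsewhere in the windows. Median folds were 9.11 at the starts and 4.20 elsewhere. Of the 9 genes, 7 lay above the median of all genes with Runx1 at a start and 4 (Ezh1, Rbbp7, Jarid2 and Phf1) lay above the middle 50% of them. Those genes were not restricted to starts as rich in CG as the members'. By the highest fold in the window the median of the 10 members was 9.11, near the 9.26 over all called genes.

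Phf19 differed from the other members in that the complex and its mark covered its own start. Phf19 (chromosome 2, 34893752 to 34914353, minus strand) had an Ezh2 region of 3766 bp that ran from -1708 to 2057 bp around the first listed start. The folds were 7.41 and 6.34, or 6.87 ± 0.758, with summits 23 and 39 bp after the start. Of the 2445 genes with Ezh2 at a start, 88.3% had a lower fold, and the median was 3.05. A second Ezh2 region, with summits at -3597 and -3354 bp, was weak, with folds of 2.39 and 1.65, and did not pass a q of 0.01.

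H3K27me3 formed a region of 11272 bp over the start of Phf19, from -6322 to 4949 bp around it. The fold of this broad region was 2.90 and 2.57, or 2.74 ± 0.230, and 87.0% of the 4743 genes with H3K27me3 at a start had a lower one. The -log10 q of its highest peak was 4.54 and 2.51, so that peak passed a q of 0.01 in both replicates and 1e-05 in neither. In replicate 1 it was 1 peak of 10833 bp, while in replicate 2 it was 4 peaks, of which the highest spanned 4138 bp, from -1361 to 2776 bp. The replicate 2 peaks from -4716 to -2506 bp and from 3967 to 4763 bp had a -log10 q of 0.372 and 0.329. They did not pass a q of 0.01, so the full extent of the region rests on replicate 1. The other 3 H3K27me3 regions, inside the gene and past its end towards Cutal, had mean folds of 2.08, 2.00 and 2.39. None of these 3 passed a q of 0.01 in either replicate. With all deposited peaks counted, also those that did not pass a q of 0.01, H3K27me3 covered 62.0% of the window in replicate 1 and 40.1% in replicate 2. Ezh2 peaks covered 14.5% and 12.8%, and Runx1 peaks 2.83% and 2.13%. Broad and narrow peaks had different inputs, so their folds are not compared.

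Runx1 was present at Phf19 in both replicates only away from the start. The higher of its 2 regions lay 19884 and 19829 bp downstream of the start, 367.5 bp from the far end of the gene, with folds of 5.92 and 8.62. The other lay 11826 and 11824 bp downstream with 2.77 and 3.47. Neither touched an Ezh2 or an H3K27me3 region, but the second lay next to one. It ended 11918 bp from the start, and an H3K27me3 region that did not pass a q of 0.01 began at 12019 bp. At the start itself replicate 1 had a weak Runx1 peak with a fold of 2.36 and a -log10 q of 2.58, whose summit was at -97 bp, and replicate 2 had none. The absence of Runx1 from the start of Phf19 thus rests on replicate 2.

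The other member called for Ezh2 was Jarid2, at a single place deep inside the gene and without the mark. The region (chromosome 13, 44869565 to 44870022) was 458 bp wide, with summits 138943 and 138918 bp downstream of the start. The Ezh2 fold was 7.05 in replicate 1 and 4.73 in replicate 2, or 5.89 ± 1.64. No H3K27me3 peak of either list lay within 50 kb, and the closest ones were 154.6 and 141.2 kb away. The closest Runx1 peaks were 26.7 and 30.2 kb away. With all deposited peaks counted, a call for Ezh2 without H3K27me3 in the window was found in 1.49% of all genes. This share depends on the cutoff. At a q of 0.01 Ezh2 was called at 15.0% of all genes and H3K27me3 at only 5.62%, so Ezh2 without the mark was more common there. The share at that cutoff was not counted.

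This Ezh2 peak stood apart from others of its height. Its -log10 q was 359 and 160, while the median of the 253 and 1015 peaks within 10% of its fold was 26.3 and 7.36. Only 2 of those peaks in replicate 1 and 0 in replicate 2 had a higher value. By q it ranked 21 of 178354 and 38 of 159007 peaks, and by fold 589 and 1184. The Phf19 start peak did not stand apart in this way, with a -log10 q of 49.1 and 35.7 against medians of 32.3 and 22.2. Of 99 Ezh2 regions with a -log10 q of at least 100 in both replicates, 9 touched no H3K27me3 peak of either list, and the Jarid2 region was among them. Read tracks and the input at this place were not analysed here.

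**Figure D3:**
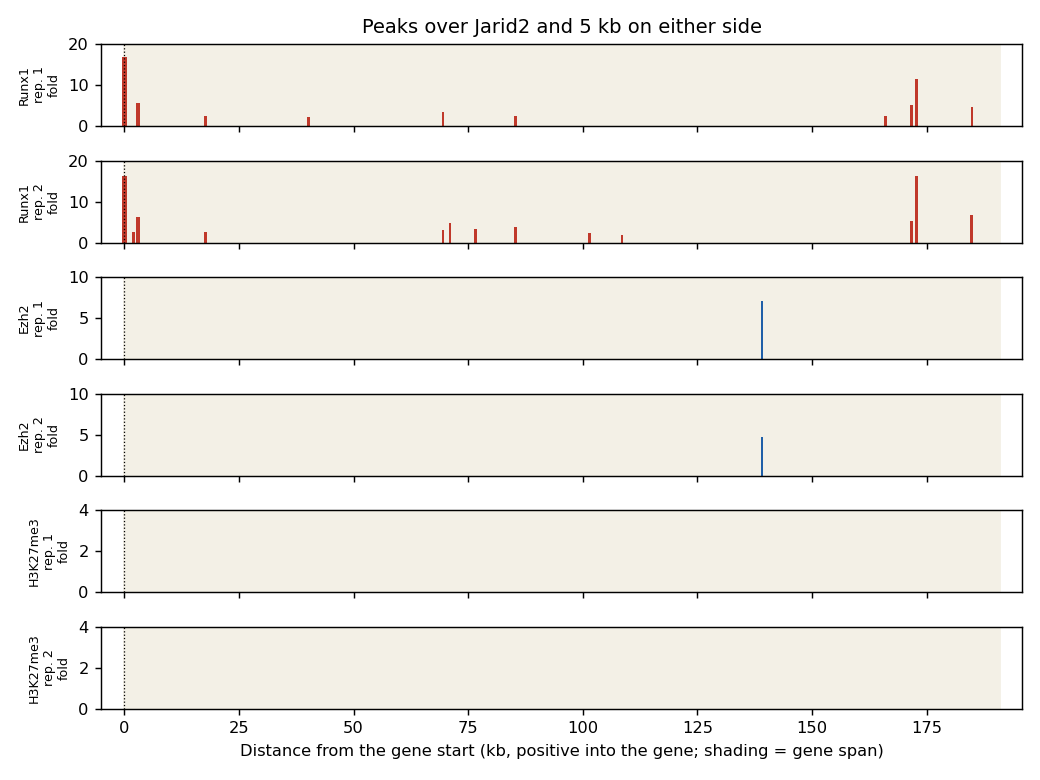
Deposited peaks over Jarid2 and 5 kb on either side, 1 row per list (x axis, kb from the start; y axis, fold enrichment, with a different range for each antibody). Very narrow peaks are drawn at a minimum width. Runx1 lies at the start and in a distal cluster, the single Ezh2 peak lies between them, and the H3K27me3 rows are empty.

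**Figure D4:**
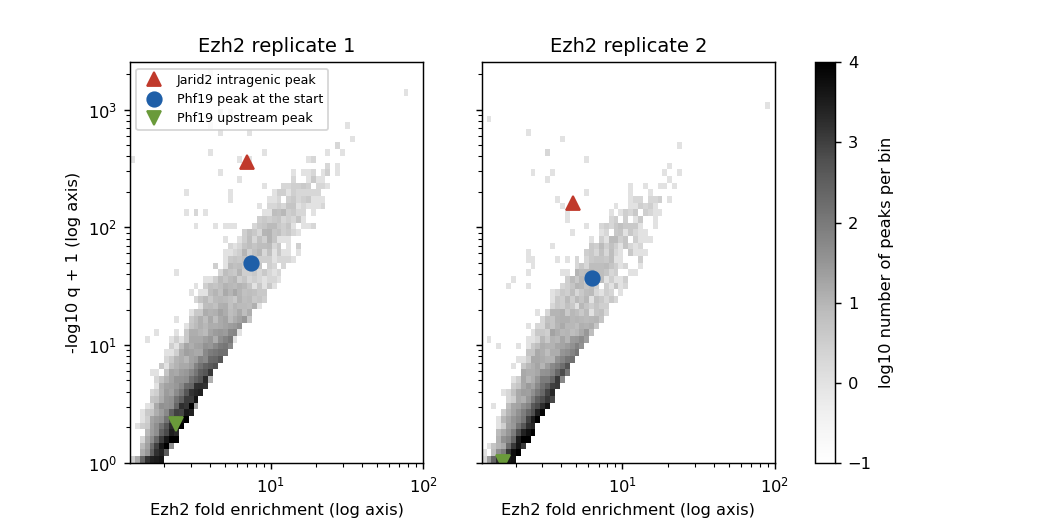
Fold enrichment (x axis, log) against -log10 q plus 1 (y axis, log) of all Ezh2 peaks of each replicate, shaded by the log10 number of peaks per bin. The peak inside Jarid2 (triangle) lies above the band of peaks of its fold, at a -log10 q of 359 and 160, and the start peak of Phf19 (circle) lies within it.

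Apart from Phf19, no member had a peak of the Ezh2 and H3K27me3 lists within 10 kb of its start, as was the case for 38.3% of genes with a listed start. The closest Ezh2 peak of either list was 15.2 kb away at Phf1 and 58.5 kb away at Mtf2, with a median of 26.9 kb over the 9 genes. For H3K27me3 the distances ran from 11.3 kb at Ezh1 to 168.5 kb at Mtf2, with a median of 18.4 kb. Among the 8 genes with no such peak in the window, Ezh1 was the closest to both, with regions of Ezh2 and of H3K27me3 at 7.84 and 5.79 kb from its span.

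Other genes that act with or against PRC2 were read in the same way. The list held Aebp2, Epop, Ezhip, Lcor and Lcorl (accessory proteins or partners), Kdm6a, Kdm6b and Uty (the family of H3K27 demethylases) and Asxl1, Asxl2 and Bap1 (a deubiquitinase complex that removes the mark of PRC1). Of these 11 genes, 10 had Runx1, 2 had Ezh2 and 4 had H3K27me3 in the window. The shares of all protein-coding genes were 62.8%, 30.8% and 46.2%. The promoter table listed a start for 9 of the 11, all but Epop and Kdm6b. Of these 9, 7, 0 and 0 had the antibody within 1 kb of it, against 46.0%, 14.0% and 27.1% of all genes with a listed start. The highest Runx1 folds were 29.4 ± 3.84 at Bap1, 25.8 ± 2.92 at Asxl1 and 17.6 ± 0.943 at Kdm6b (SD, n = 2). Ezh2 was weak at Epop, with 2.88 ± 0.0696, and at Aebp2, with 2.40 ± 0.762. Ezhip, named here after its values were seen, had no region of any antibody. The median Runx1 fold of the called genes was 13.8 in this list and 9.11 in the 10 PRC2 genes, against 9.26 over all called genes.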

How the data were processed

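Chromatin immunoprecipitation and sequencing gave 1 peak list per library with an antibody, and the 2 input libraries were not analysed here. Per the submitters' processing notes, the build was mm10 and the tools included MACS2 2.0.10 and Bowtie2 2.2.1, besides SAMtools and Picard, with no role or parameters given. Each deposited list gives for each peak a linear fold enrichment (a ratio) and p- and q-values on the -log10 scale, all values of the authors. Depth is unknown, as no read totals were found in the labels or lists. The lists of Ezh2 and Runx1, which share an input, hold narrow peaks with summits, and those of H3K27me3 hold broad peaks.

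Regions were peaks of both replicates linked by an overlap of at least 1 bp, with Python 3.11.15 and pandas 2.3.3, and the code was tested on simulated data. Genes were protein-coding RefSeq genes of GRCm38.p6, and starts and promoters came from its promoter table, in which all 10 members were found. No exon table was used. An ± is the SD over 2 replicates. With 2 lists against 2 the smallest exact two-sided p is 0.333, so no test was run. The members and lists were chosen with earlier results of these data known. All members are named, and of the other pathway list the 3 highest for Runx1 and for Ezh2. The alternatives were stricter q cutoffs, the 10000 strongest peaks, other windows and overlaps, and each replicate alone.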

Additional observations from a re-analysis of the deposited data

How the results depend on the processing

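Runx1 at all 10 members, Ezh2 at 2 and H3K27me3 at 1 were the counts obtained with either replicate list alone, so leaving out a replicate gave ranges of 10 to 10, 2 to 2 and 1 to 1. A gene called from both replicates has a peak in each list, so these counts could not fall. The Runx1 count, already at 10, could not change, and only a rise for Ezh2 or H3K27me3 was possible. The shares of all genes were 68.4% to 69.8%, 42.5% to 46.6% and 50.2% to 56.8% there. The counts were the same at a q of at most 0.01, where the shares of all genes were 59.0%, 15.0% and 5.62%. They were also the same with the gene span alone, beside 56.5%, 24.6% and 36.8% of all genes. A peak of each replicate anywhere in the window, a looser rule that also could not lower the counts, gave the same ones, beside 64.9%, 37.9% and 47.8%. So did overlap by at least 50% of the shorter peak, beside 62.7%, 29.6% and 45.2%. With the 10000 peaks of highest fold, 4 members kept Runx1 (Ezh1, Rbbp7, Jarid2 and Phf1), beside 28.5% of all genes. At a q of at most 1e-05 the number with H3K27me3 was 0, beside 0.626% of all genes, while those of Runx1 and Ezh2 stayed at 10 and 2, beside 54.9% and 7.12% of all genes. Within 1 kb of either end of the gene Ezh2 was at 1 member, beside 16.8% of all genes. Within 1 kb of a listed start (a setting added after the data were seen) it was also at 1, beside 14.0% of genes with one. The site in Jarid2 is far from both. With 10 kb on either side Ezh1 was added, giving 3 members with Ezh2 and 2 with H3K27me3, beside 36.9% and 54.8% of all genes. All 13 highest folds were unchanged at a q of 0.01 and with the gene span alone. The q filter could not have changed them, because each of these regions passed it in both replicates. No paired analysis was possible because the results come from no test. Depth is unknown, so a missing peak says only that none was called.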

Other observations

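Over the 10 windows Runx1 had 34 peaks in replicate 1, of which 7 overlapped none of replicate 2, and 47 in replicate 2, of which 19 overlapped none of replicate 1, or 20.6% and 40.4%. Over the whole lists these shares were 29.8% of 64059 and 32.3% of 66153 peaks, so the members' shares lay on either side of them. The highest of those in replicate 2 were at Jarid2, with a fold of 4.79 at 71010 bp from the start, at Ezh1, with 4.57 at 5023 bp, and at Mtf2, with 4.31 at -4604 bp. At the far side of the Ezh2 gene, between its end and Cul1, replicate 1 had 1 such peak (fold 2.53) and replicate 2 had 3 (2.60, 2.07 and 2.48), none of which overlapped the peak of the other list. Ezh2 and H3K27me3 peaks of a single replicate lay over Phf19 alone among the members, 1 in each Ezh2 list and 2 and 1 in the H3K27me3 lists.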
